A study of Mus musculus with 6 samples.

Results

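The heptad is a set of 7 transcription factors, Gata2, Runx1, Tal1, Lmo2, Lyl1, Erg and Fli1, whose expression was followed here in mouse long-term haematopoietic stem cells (LT-HSC). Members were all probe sets that name 1 of these genes and no other gene, which gave 15 probe sets of 7 genes among 45037 probe sets and 18193 genes on the array. Runx1 had 6 probe sets, Gata2, Erg and Fli1 had 2 each, and Tal1, Lmo2 and Lyl1 had 1 each. The cells were sorted from bone marrow at 3 weeks as lineage-negative, Sca-1+, c-kit+, CD48-, CD150+ cells, from mice wildtype for Irf8 (3 arrays) and from Irf8 -/- mice (3 arrays, labelled knockout). No treatment was given, and the labels name no Cre, transgene or strain. Irf8 encodes a transcription factor that directs monocyte and dendritic cell fates, and the question put to the arrays is what its absence goes with in stem cells.

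The 7 factors bind together at many enhancers of blood stem and progenitor cells, their own among them, and form a network in which members help to keep each other expressed. Tal1 and Lyl1 are related basic helix-loop-helix proteins that bind E-box DNA with an E protein partner, and Lmo2 is a LIM-domain adaptor that does not bind DNA and bridges them, through Ldb1, to Gata2 at GATA sites. Erg and Fli1 are related ETS factors, and Runx1 binds DNA through its runt domain with its partner Cbfb. Loss of Tal1 or Lmo2 blocks the formation of blood in the embryo, and several members are altered in leukaemia.

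Runx1 and Erg are transcribed from several starts, and the probe sets of each did not give 1 common answer. Whether the starts have a part in this was not tested. RefSeq windows (GRCm38.p6) were found for 5 of the 7 genes, 10 windows in all. The 250 bases before a start were searched on both strands for 4 motifs. The motif of GATA factors was taken as GATAA, the E-box as CANNTG, which is its own reverse complement, the motif of ETS factors as GGAAG and that of Runt factors as TGTGGT. Matches stand in capitals, and the letters of 1 motif may overlap those of another. The distal and the proximal start of Runx1 and the start of Erg with the most matches are shown, with that of Lyl1 for a factor with 1 probe set.
Runx1 distal start (chr16:92826075-92826324, minus strand): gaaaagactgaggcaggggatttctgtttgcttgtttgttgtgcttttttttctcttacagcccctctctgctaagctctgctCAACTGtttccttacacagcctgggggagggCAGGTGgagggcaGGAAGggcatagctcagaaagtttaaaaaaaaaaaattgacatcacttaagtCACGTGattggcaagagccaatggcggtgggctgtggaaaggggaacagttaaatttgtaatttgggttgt
Runx1 proximal start (chr16:92697330-92697579, minus strand): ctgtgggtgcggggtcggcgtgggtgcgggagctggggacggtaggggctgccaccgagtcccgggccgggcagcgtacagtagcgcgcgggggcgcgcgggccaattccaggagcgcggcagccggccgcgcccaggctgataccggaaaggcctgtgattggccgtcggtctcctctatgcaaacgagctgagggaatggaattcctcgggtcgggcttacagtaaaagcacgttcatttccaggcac
Erg, the third start (chr16:95459349-95459598, minus strand): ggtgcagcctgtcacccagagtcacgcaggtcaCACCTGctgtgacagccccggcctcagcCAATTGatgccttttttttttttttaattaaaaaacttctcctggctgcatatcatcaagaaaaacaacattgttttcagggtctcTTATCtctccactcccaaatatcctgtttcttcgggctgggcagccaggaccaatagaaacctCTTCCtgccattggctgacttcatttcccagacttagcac
Lyl1 (chr8:84701207-84701456, plus strand): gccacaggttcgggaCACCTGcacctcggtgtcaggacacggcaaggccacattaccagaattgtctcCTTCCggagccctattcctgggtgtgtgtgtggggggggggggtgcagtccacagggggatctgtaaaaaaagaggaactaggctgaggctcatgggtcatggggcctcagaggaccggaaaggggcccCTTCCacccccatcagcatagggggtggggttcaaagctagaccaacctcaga
The distal Runx1 window held 3 E-box matches and 1 ETS match, the proximal window held 0 matches, the Erg window held 1 GATA, 2 E-box and 1 ETS match, and the Lyl1 window held 1 E-box and 2 ETS matches. Over the 10 windows of these genes, 2 held GATAA, 3 an E-box, 5 GGAAG and 0 TGTGGT. Among all 32851 windows of the same length, 22.6% held GATAA, 66.2% an E-box, 64.1% GGAAG and 14.0% TGTGGT. These matches describe letters in short windows next to a start, and the enhancers at which the heptad binds were not analysed here.

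Array medians lay between 4.85 and 4.96 on the log2 scale, and the array least like the rest was knockout replicate 3, whose correlation across probe sets with each of the others averaged 0.835. Irf8 itself was not lower in knockout in its brighter probe set, which read 4.98, 6.43 and 5.16 in wildtype and 4.91, 6.39 and 6.50 in knockout (limma, adjusted p = 0.929). Its mean over all arrays, 5.73, lay below the median gene level of 5.81 and above the median of 5.04 over probe sets. The dimmer Irf8 probe set (1416714_at) had a mean of 4.53, below the median of 5.04 over probe sets, and differed by 0.23 with overlap. Whether these levels in wildtype leave room to see a loss was not tested. The place of the Irf8 probes relative to the deleted part was not given in the sources used here. Directions therefore refer to arrays as labelled. Of 12 stem cell markers 10 were measured and 9 of these lay above the median gene level of 5.81. Their mean level ran from 8.29 to 9.12 in wildtype and read 9.20, 8.62 and 7.24 in knockout replicates 1, 2 and 3. Of the 10 differences 3 were above 0 and 7 below, with a median of -0.47. Procr was the 1 marker of 10 without overlap, lower in knockout, where 10.9% of genes had no overlap. Cd48, the surface protein sorted against, read 3.13 to 4.54 in wildtype and 7.60, 9.42 and 3.55 in knockout. Neutrophil markers, 13 of 16 measured, had a mean level of 6.20 to 7.27 in wildtype and of 8.22, 8.19 and 10.73 in knockout replicates 1, 2 and 3, with all 13 differences above 0. Of these 13, 5 were higher without overlap and 0 lower, where 10.9% of genes had no overlap. The 4 markers of CD48+ progenitors had a mean level of 5.28 to 5.62 in wildtype and of 6.83, 7.65 and 6.74 in knockout. Flt3 was the 1 of these 4 without overlap, higher in knockout, beside the same share of genes. Endothelium also uses several heptad factors: its 12 markers had a mean level of 5.43 to 5.72 in wildtype and of 5.97, 5.29 and 5.78 in knockout, and 4 of the 12 (Emcn, Esam, Pecam1 and Tie1) lay above the median gene level. Its defining gene Cdh5, below that level, read 3.33 to 4.62 over all arrays. Of the 12 differences 7 were above 0 and 5 below. Without overlap, 1 marker was higher and 1 lower in knockout, where 10.9% of genes had no overlap. Plvap, the higher, read 3.79, 3.11 and 3.82 in wildtype and 7.52, 4.55 and 6.48 in knockout. Esam, the lower, read 8.62, 7.92 and 7.86 in wildtype and 7.81, 7.75 and 7.04 in knockout. Mean levels of red cell markers (9 of 11 measured) were 5.51 to 5.93 in wildtype and 4.65 to 5.51 in knockout, and those of megakaryocyte, mast cell and basophil, B and T cell and monocyte markers overlapped between groups. The part of these cell types in the heptad values was not tested.

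No probe set of the 7 factors passed the test between genotypes, and the wildtype and knockout values overlapped for every one of them. All 15 probe sets read above the median level of the array (5.04, the median over probe sets of the mean over arrays). With limma and Benjamini-Hochberg adjustment over 45037 probe sets, 0 of 15 passed an adjusted p of 0.05, as did 0% of all probe sets, and 0 of 15 had an unadjusted p under 0.05, where 4.7% did. The smallest unadjusted p of a member was 0.228, and adjusted p-values ran from 0.906 to 0.977. Groups overlapped for all 15, whereas 10.9% of all probe sets had groups without overlap. The differences, knockout minus wildtype, were above 0 for 8 probe sets and below 0 for 7.

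The median absolute difference of the 15 probe sets was 0.23 on the log2 scale, beside 0.31 over all probe sets and 0.48 over probe sets above the median level. The median standard error was 0.47 for the members, 0.44 over all probe sets and 0.65 over those above the median level. For 4 of 15 members, 1 each of Gata2, Runx1, Lmo2 and Erg, the 95% interval of the difference lay within a 2-fold change in either direction; the same held for 34.5% of all probe sets and for 7.48% of those above the median level. For the other 11 the arrays could not bound the difference to 2-fold. In 1 probe set, of Runx1, the difference itself was past 2-fold, as in 15.2% of all probe sets. By gene, with the probe set of highest mean, the median difference was 0.13 over the 7 genes and 0.07 over all 18193, with 5 genes above 0 and 2 below. These arrays measure pooled RNA of sorted cells, in which fewer cells of a type and less RNA per cell cannot be told apart. The p-values measure the spread between 3 samples per group, called biological replicates by the labels without naming animals.

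**Figure D1:**
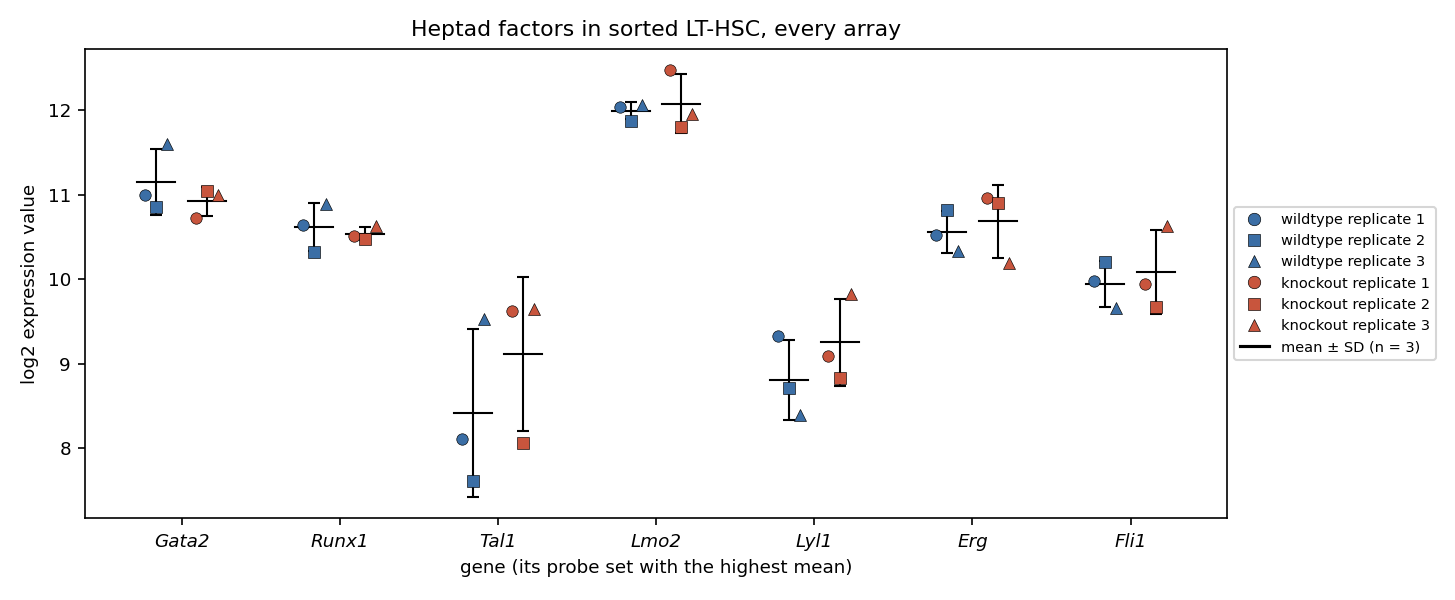
Log2 expression value (vertical axis) of each heptad gene in its probe set with the highest mean, for the 3 wildtype arrays (blue) and the 3 knockout arrays (red), with mean ± SD as bars; levels of different genes come from different probes and are not comparable. Lmo2 stays between 11.80 and 12.47 in all 6 arrays, while Tal1 runs from 7.62 to 9.65 with high and low arrays in both groups.

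Lmo2, the adaptor of the complex, gave the narrowest interval of the 15. It read 12.03, 11.88 and 12.06 in wildtype and 12.47, 11.80 and 11.96 in knockout. Knockout replicate 1 was the highest array and knockout replicate 2 the lowest, so the wildtype values lay inside the knockout range. The difference was 0.09 (SE 0.20, 95% interval -0.38 to 0.56), or 1.06-fold with bounds of 0.767-fold and 1.47-fold, with an adjusted p of 0.954 in limma.

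Gata2, the zinc finger factor that stem cells need to survive and expand, read 11.00, 10.86 and 11.60 in wildtype and 10.73, 11.04 and 11.00 in knockout in its brighter probe set (1428816_a_at). Wildtype replicate 3 stood above the other 5 arrays, which lay within the range from 10.73 to 11.04. The difference was -0.23 (SE 0.26, 95% interval -0.85 to 0.39), and it was -0.0051 without wildtype replicate 3, -0.13 without knockout replicate 1 and -0.38 without wildtype replicate 2. The other probe set (1450333_a_at) read 8.94, 9.49 and 10.02 in wildtype and 10.19, 9.85 and 9.0 in knockout, a difference of 0.20 (SE 0.47). Both groups ran over almost the same span there, and knockout replicate 1, lowest in the brighter probe set, was highest in this one.

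Tal1 was the most variable of the 7 genes when each is taken by its brightest probe set, with a range of 2.03 over the arrays. It read 8.11, 7.62 and 9.53 in wildtype and 9.63, 8.06 and 9.65 in knockout. The arrays fell into 3 high ones (wildtype replicate 3 and knockout replicates 1 and 3) and 3 low ones, a division that crosses the labels. The difference was 0.69 (SE 0.71, 95% interval -1.02 to 2.41; adjusted p = 0.907 in limma), and it ran from 0.29 to 1.25 when 1 array was left out. With 1 probe set, this split had no second measurement on the array.

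Lyl1, the relative of Tal1 that can stand in for it in adult stem cells, did not follow the same arrays. It read 9.33, 8.71 and 8.39 in wildtype and 9.09, 8.84 and 9.83 in knockout. Wildtype replicate 3, high for Tal1, was the lowest array for Lyl1, and knockout replicate 3 was the highest for both. The difference was 0.44 (SE 0.47, 95% interval -0.68 to 1.57; adjusted p = 0.908 in limma). It was 0.15 without knockout replicate 3, 0.24 without wildtype replicate 3 and 0.70 without wildtype replicate 1.

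Erg, an ETS factor required for stem cell maintenance, gave a small difference in one probe set and a larger one of opposite sign in the other. The brighter (1440244_at) read 10.52, 10.82 and 10.33 in wildtype and 10.97, 10.91 and 10.19 in knockout, a difference of 0.13 (SE 0.30, 95% interval -0.60 to 0.85). The dimmer (1425370_a_at) read 9.79, 10.12 and 10.72 in wildtype and 10.46, 9.39 and 8.90 in knockout, a difference of -0.62 (SE 0.50, 95% interval -1.82 to 0.58). Knockout replicate 3 was the lowest array in both. Without it the differences were 0.38 and -0.28, so the probe sets still lay on opposite sides of 0; without knockout replicate 1 the dimmer differed by -1.06.

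Fli1, the closest relative of Erg among the heptad, was highest in knockout replicate 3 in both of its probe sets. The brighter (1422024_at) read 9.98, 10.20 and 9.66 in wildtype and 9.94, 9.68 and 10.63 in knockout, a difference of 0.13 (SE 0.36, 95% interval -0.73 to 1.00). The dimmer (1433512_at) read 9.81, 9.22 and 10.10 in wildtype and 9.27, 8.86 and 10.25 in knockout, a difference of -0.25 (SE 0.48). Without knockout replicate 3 these became -0.14 and -0.65.

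Erg and Fli1 thus departed in opposite directions in that 1 array. The Erg value minus the Fli1 value of the same array, taken between the brighter probe sets, was 0.54, 0.62 and 0.67 in wildtype and 1.02, 1.23 and -0.44 in knockout. Only changes of this gap between arrays can be read, since its size depends on the probes; its SD was 0.07 in wildtype and 0.91 in knockout (n = 3 each). Between the dimmer probe sets the gap was -0.02, 0.90 and 0.62 in wildtype and 1.20, 0.54 and -1.35 in knockout, with SDs of 0.47 and 1.32. In both pairings knockout replicate 3 was the lowest array. The gap was chosen after its values were seen. That array also had the highest neutrophil mean (10.73) and the lowest stem cell marker mean (7.24), and the part of either in this gap was not tested.

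**Figure D2:**
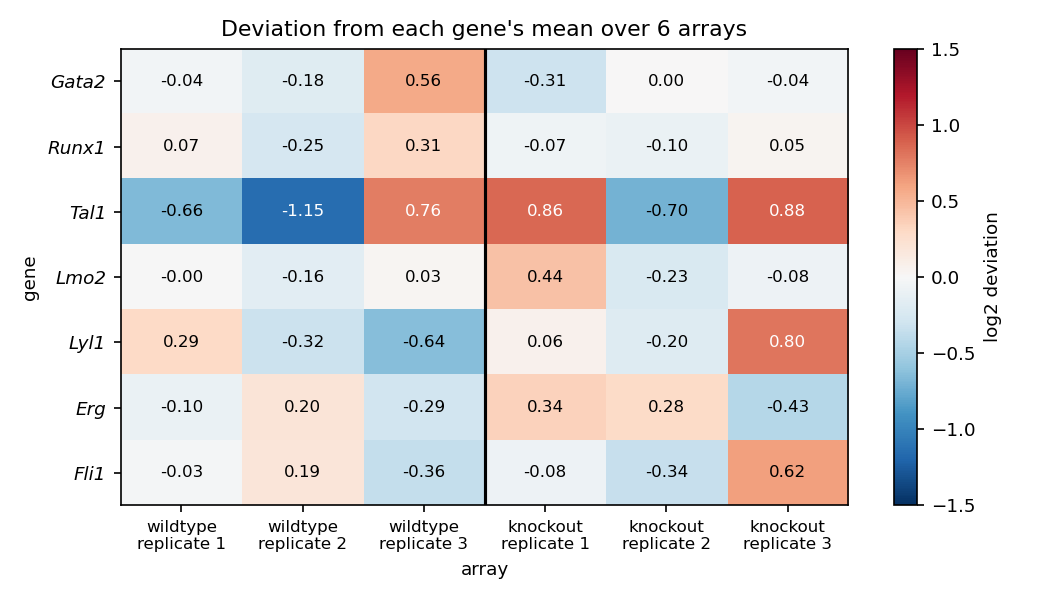
Log2 deviation of each heptad gene (rows, probe set with the highest mean) from its own mean over the 6 arrays (columns); red is above and blue below that mean, and the vertical line divides wildtype from knockout. Tal1 shows the widest deviations (-1.15 to 0.88), and in knockout replicate 3 Erg (-0.43) lies opposite to Fli1 (0.62), Lyl1 (0.80) and Tal1 (0.88).

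Runx1, the runt-domain factor through which endothelium gives rise to blood stem cells, had 6 probe sets that differed widely in spread. The brightest (1422864_at) read 10.65, 10.33 and 10.88 in wildtype and 10.51, 10.48 and 10.63 in knockout, the narrowest range of the 15 at 0.56. All 3 knockout arrays lay inside the wildtype range. The difference was -0.08 (SE 0.24, 95% interval -0.66 to 0.50; adjusted p = 0.966 in limma). A second (1422865_at) read 9.42, 10.11 and 10.51 in wildtype and 9.62, 9.90 and 10.05 in knockout, again with knockout inside the wildtype range, and differed by -0.16 (SE 0.37).

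The remaining Runx1 probe sets scattered more. The probe set 1440878_at read 8.66, 9.12 and 8.55 in wildtype and 10.13, 8.29 and 7.36 in knockout, so knockout held both the highest and the lowest array. The probe set 1427650_a_at read 7.87, 8.46 and 7.62 in wildtype and 8.88, 8.74 and 7.50 in knockout, a difference of 0.39 (SE 0.57) that ran from 0.14 to 0.82 with 1 array left out. Knockout replicate 3 was the lowest array in both. The probe set 1452530_a_at read 8.08, 6.72 and 8.39 in wildtype and 7.48, 9.34 and 9.38 in knockout, a difference of 1.00 (SE 0.75), which is the 1 member past 2-fold; it was 0.50 without wildtype replicate 2 and 1.63 without knockout replicate 1. The dimmest, 1452531_at, read 7.68, 4.95 and 5.66 in wildtype and 4.36, 6.77 and 5.00 in knockout, a difference of -0.72 (SE 0.92) and the widest range of the 15 at 3.32. Of the 6 differences 2 were above 0 and 4 below, and the largest in either direction came from the probe sets with the largest standard errors for their sign. Which transcripts, from the distal or the proximal start, each probe set reads was not given in the sources used here.

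**Figure D3:**
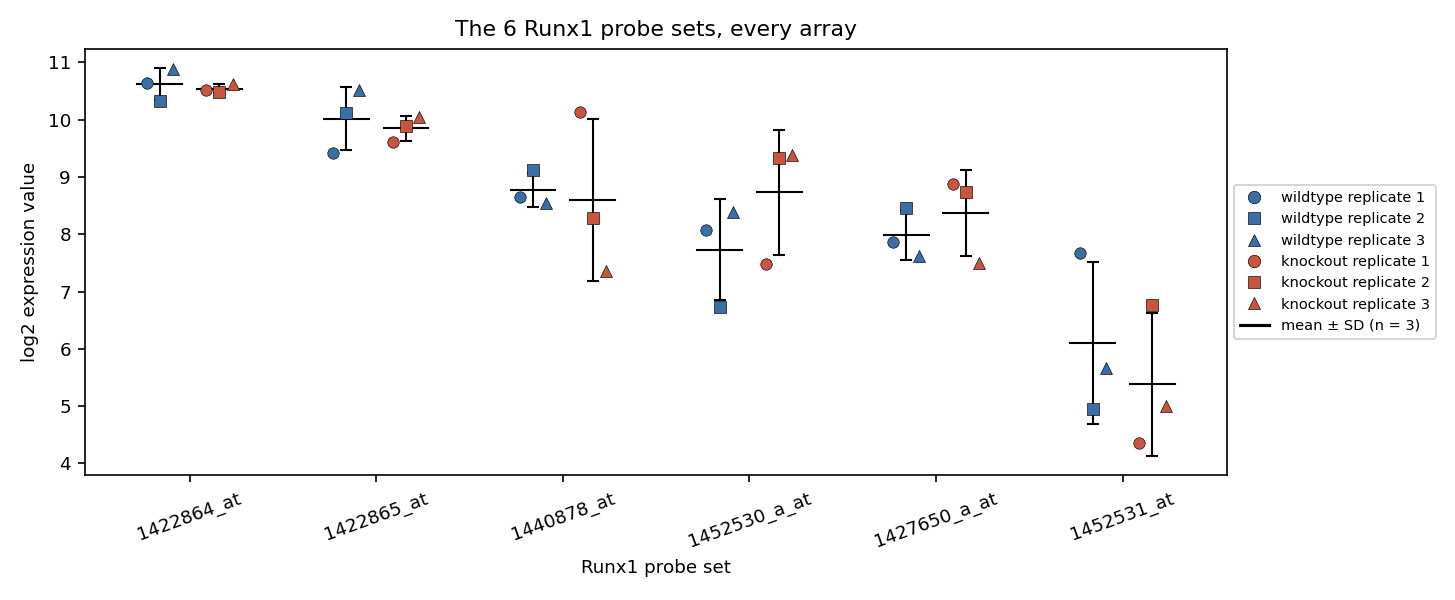
Log2 expression value (vertical axis) of the 6 Runx1 probe sets (horizontal axis, brightest first by mean) in 3 wildtype (blue) and 3 knockout (red) arrays, with mean ± SD as bars. The brightest probe set spans 0.56 over all 6 arrays and the dimmest spans 3.32, and groups overlap in each of the 6.

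The sign of the difference varied between probe sets of 1 gene. All 4 genes with several probe sets had differences on both sides of 0. With the mean of a gene's probe sets, the differences were 0.041 for Runx1, -0.016 for Gata2, -0.25 for Erg and -0.059 for Fli1, and the median over the 7 genes was 0.041. In that fit 0 of the 7 passed in limma, where 0.0055% of genes did (1 gene of 18193), and 0 had an unadjusted p under 0.05, where 4.97% of genes did.

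**Figure D4:**
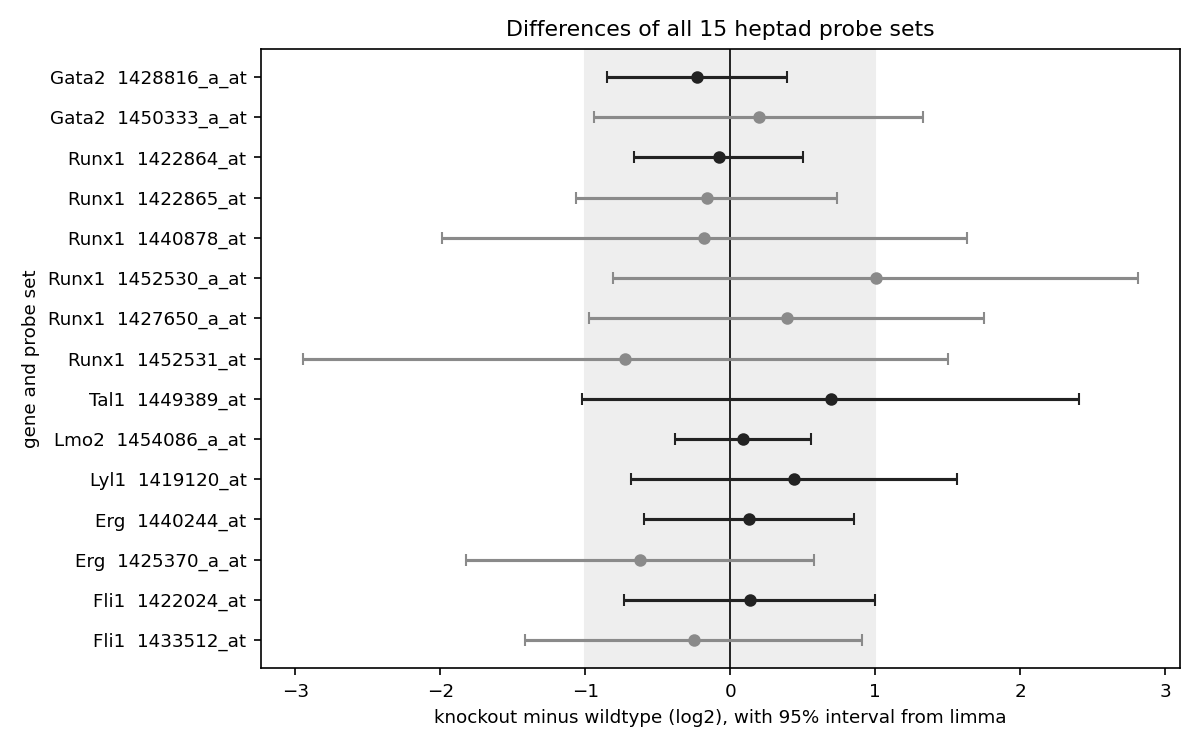
Knockout minus wildtype difference on the log2 scale (horizontal axis) of all 15 heptad probe sets with the 95% interval from limma; dark points are the probe set with the highest mean of each gene, and the grey band marks changes within 2-fold. All 15 intervals cross 0, and those of Lmo2 and of the brightest probe sets of Gata2, Runx1 and Erg stay inside the band.

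Groups that overlapped over 6 arrays could separate when 1 array was left out, and so did those of 9.21% to 14.3% of the 40130 probe sets that overlapped over 6 arrays, the shares given next. Without knockout replicate 1, 3 of 15 members had no overlap (Erg 1425370_a_at and Runx1 1440878_at lower, Runx1 1452530_a_at higher in knockout), where 12.5% of those probe sets separated. Without wildtype replicate 1 it was 2 of 15 (Lyl1 higher, Runx1 1422865_at lower; 9.21% of those). Without knockout replicate 3 it was 2 of 15 (Erg 1440244_at and Runx1 1427650_a_at higher; 10.5% of those). It was 1 of 15 without wildtype replicate 2 (Runx1 1422864_at lower; 10.2% of those) or knockout replicate 2 (Tal1 higher; 14.3% of those), and 0 without wildtype replicate 3 (11.3% of those).

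Averaged over the 7, each centred on its own mean, the arrays stood at -0.07, -0.24 and 0.05 in wildtype and at 0.18, -0.18 and 0.26 in knockout. Replicate 2 was the lowest array of each group and the groups overlapped. Between members, by brightest probe set, Gata2 and Runx1 had the smallest mean absolute difference over the 6 arrays, 0.15, and Tal1 and Erg the largest, 0.96. This measure is not scaled to a gene's range, and Runx1 had the narrowest range of the 7 and Tal1 the widest. Among 8844 other genes above the median gene level with at least the range of the mean profile (0.50), the 5 closest to it were Zfas1 at a mean absolute difference of 0.049, Nkd2 at 0.055, Ccdc65 at 0.073, Thap3 at 0.078 and Tfam at 0.079. This likeness, the closest over 6 arrays among those genes, is a description.

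Genes around the heptad were read from 3 lists, each gene by its brightest probe set: partner proteins, members of the same families, and reported targets. Of the 20 partners 0 passed the limma test over all genes, as did 0% of genes. In that fit 0 partners had an unadjusted p under 0.05, where 4.84% of genes did. Their median difference was 0.07, equal to that over all genes to 2 decimals, with 11 above 0 and 9 below. Cbfb, the partner of Runx1 (chosen here for its role), read 11.00, 11.52 and 10.17 in wildtype and 11.53, 11.33 and 11.57 in knockout, and Ldb1, which joins Lmo2 complexes (also chosen for its role), read 10.98, 11.76 and 10.14 and then 11.44, 11.10 and 11.67. For both, wildtype replicate 3 was the lowest array and the groups overlapped.

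Rcor1 (CoREST), a corepressor scaffold that holds the demethylase Kdm1a, was the 1 partner of 20 whose groups did not overlap, where 10.9% of genes had none. It read 7.91, 6.59 and 8.28 in wildtype and 9.21, 8.71 and 9.04 in knockout, a difference of 1.39 (SE 0.60, adjusted p = 0.887 in limma over genes), which was 0.89 without wildtype replicate 2. Its other probe sets differed by 1.94, without overlap, and by 1.86, with overlap. The unadjusted p of the brightest Rcor1 probe set was 0.0553 in limma over genes and 0.0497 in limma over all probe sets. In the latter fit it was 0.0146 for the probe set at 1.94 and 0.259 for that at 1.86, with an adjusted p of 0.906 for each. Kdm1a, chosen for its tie to Rcor1, read 10.00, 10.01 and 10.91 in wildtype and 11.33, 10.20 and 11.32 in knockout.

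Of the 19 relatives 17 were measured (Runx2 and Fev were not analysed here), and 0 passed the limma test, with 0 at an unadjusted p under 0.05, where 4.84% of genes lay. Their median difference was 0.12, with 11 above 0 and 6 below. Ets1, an ETS factor best known from lymphoid cells, was the 1 member of 17 without overlap, where 10.9% of genes had none. It read 5.54, 5.32 and 6.12 in wildtype and 4.99, 5.25 and 5.07 in knockout, with a mean of 5.38, below the median gene level of 5.81. The difference was -0.56 (SE 0.32), and -0.33 without wildtype replicate 3. Its other probe sets, with overlap, gave -0.14, -0.37 and 1.62, and the mean of its probe sets gave 0.14. In the probe set at 1.62, knockout replicate 3 read 8.19 and the other arrays 3.17 to 4.57. Gata1, which follows Gata2 in the red cell and megakaryocyte lineages and was chosen for that role, read 7.72, 5.93 and 6.40 in wildtype and 6.12, 7.80 and 7.95 in knockout. Spi1 (PU.1), also chosen for its role as the ETS factor of myeloid cells and listed among the targets too, read 7.99, 6.45 and 8.02 and then 9.72, 8.37 and 7.62.

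Of the 25 reported targets 23 were measured, and 0 passed the limma test, with 1 of 23 at an unadjusted p under 0.05, close to the 4.84% of all genes. The median difference was 0.08, with 12 above 0 and 11 below; Spi1, Cbfa2t3 and Zfpm1 are each also in another list. Gfi1b, a transcriptional repressor that acts within the erythroid and megakaryocyte lineages, was that 1 gene, measured by 1 probe set only. It read 10.42, 10.30 and 10.74 in wildtype and 7.72, 7.91 and 9.12 in knockout, so every knockout array lay below every wildtype array. The difference was -2.24 (SE 0.51), with an unadjusted p of 0.00329 and an adjusted p of 0.887 over genes in limma. Eng (endoglin), a TGF-beta co-receptor of stem cells and endothelium, was the other target without overlap, 2 of 23 in all where 10.9% of genes had none. It read 9.44, 9.51 and 9.69 in wildtype and 9.88, 10.54 and 10.06 in knockout, a difference of 0.61 (SE 0.35); its other probe set gave 0.72 with overlapping groups.

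Other reported targets, chosen here for their roles, had overlapping groups. Myb, a factor of progenitor growth, read 11.89, 11.94 and 12.20 in wildtype and 12.00, 11.89 and 12.01 in knockout, a difference of -0.04 (SE 0.14). Meis1, a cofactor of Hox proteins in stem cells, read 10.53, 10.73 and 10.45 and then 11.16, 10.71 and 10.85, a difference of 0.34 (SE 0.25). Kit, the stem cell factor receptor used in the sort, read 9.38, 9.76 and 9.41 in wildtype and 10.46, 8.93 and 8.09 in knockout, so that knockout held both the highest and the lowest array.

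**Figure D5:**
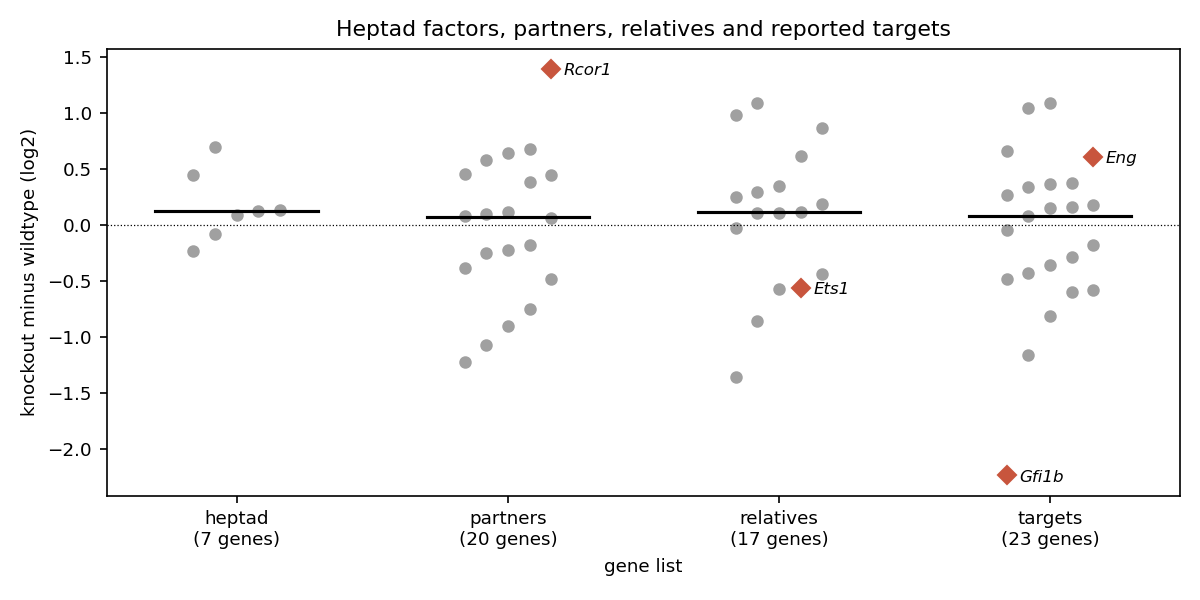
Knockout minus wildtype difference on the log2 scale (vertical axis) of each measured gene in 4 lists (horizontal axis): the 7 heptad genes, 20 partners, 17 relatives and 23 reported targets, 1 probe set per gene. Grey circles are genes whose groups overlap, red diamonds those without overlap, and the black line is each list's median; the medians lie between 0.07 and 0.13, and Gfi1b at -2.24 lies farthest from 0 among the 4 lists.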

How the data were processed

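RNA amplified from sorted LT-HSC was hybridised to Affymetrix Mouse Genome 430 2.0 arrays, 3 wildtype and 3 knockout, per the labels' protocols. The table deposited by the authors gives each probe set a log2 value in each array. The submitters' processing notes name Partek, RMA and Affymetrix Expression Console, with versions and settings not given in the sources used here. Background correction and probe summary, as RMA does them, shrink differences of dim probe sets. The log2 scale was read from the values, so the number of arrays, not a count, limits precision.

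Probe sets were named by the platform annotation: 34945 with 1 gene, 932 with several and 9160 with none, and 0 of those with several held a heptad gene. Of the 34945, 34741 matched RefSeq by Entrez number and 0 symbols changed. Knockout was compared with wildtype by limma 3.58.1 (R 4.3.3; lmFit, eBayes with a mean-variance trend) over all 45037 probe sets, with Benjamini-Hochberg adjustment and a threshold of 0.05; lists used a fit over 18193 genes, each by its probe set with the highest mean. An exact permutation test of 3 against 3 cannot go below p = 0.1 and was not used. On simulated data over 45037 probe sets, the share of changed probe sets called was 4.4% at a log2 change of 1, 23.6% at 2, 38.8% at 3 and 54.8% at 4, with 3.6 false calls per run. The simulation drew independent normal errors and took each probe set's SD in these arrays as its true SD. Its shares may therefore not hold for the measured arrays, in which 0 probe sets passed.

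The members and lists were chosen with earlier results of these data known. Named are Irf8, all members, from each list up to 4 genes without overlap by smallest p, and the 5 genes closest to the mean heptad profile; others are marked as chosen. Alternatives covered moderation, array weights, probe set choice, a level filter, scaling, a replicate block and leaving out each array. Motifs were counted and figures drawn with matplotlib 3.10.9, numpy 2.4.6 and pandas 2.3.3 under Python 3.11.15.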

Additional observations from a re-analysis of the deposited data

How the results depend on the processing

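Under the 14 alternatives 0 heptad probe sets passed, and the smallest adjusted p of a member was 0.80. The median difference over the 7 genes ran from -0.011 to 0.26 with 1 array left out and from 0.041 to 0.15 otherwise. The number of members without overlap stayed at 0 in the settings that kept all 6 arrays and ran from 0 to 3 with 1 left out. Signs of small differences turned: with the mean of probe sets Runx1 was 0.041, Erg -0.25, Fli1 -0.059 and Ets1 0.14, and with array weights Runx1 1440878_at was 0.0064. With 1 array left out the sign turned for 9 of 15 probe sets. The ranges were -0.073 to 0.54 (Gata2 1450333_a_at), -0.23 to 0.052, -0.46 to 0.085, -0.95 to 0.44 and -1.42 to 0.069 (Runx1 1422864_at, 1422865_at, 1440878_at and 1452531_at), -0.11 to 0.22 (Lmo2), -0.011 to 0.38 (Erg 1440244_at), -0.14 to 0.34 and -0.65 to 0.048 (Fli1 1422024_at and 1433512_at). Fewer arrays tested is part of each such setting; for the others the cause was not tested. The target list's median ran from -0.13 to 0.11 with 1 array left out and was below 0 without wildtype replicate 1 or 2 or knockout replicate 1 or 2. That of the partners ran from -0.10 to 0.27 and was below 0 without wildtype replicate 2 or 3 or knockout replicate 1; averaging each gene's probe sets gave -0.023. That of the relatives ran from 0.011 to 0.28, and Gfi1b ran from -2.67 to -1.97.

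Replicate numbers showed no array-wide pairing: same-numbered arrays correlated at -0.014, 0.004 and 0.003 in their deviations from the group means. With 3 arrays per group a weaker tie between same-numbered samples could be missed, and the labels name none. With the replicate block 0 members passed, with the median difference at 0.13. Quantile normalization and centring moved the median of all probe sets by -0.025 and -0.016.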
